A study of Mus musculus with 16 samples.

Results

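Genes of neural tube progenitors and of newly formed neurons were followed in whole mouse embryos at E9.5 that lacked KAT6A, carried extra copies of Kat6b, or both. The 34 genes were chosen by name, as dorsoventral progenitor factors, proneural genes and early neuron genes, out of 26411 genes in the count files. All 34 were present, and all 34 passed the filter on low counts that left 15679 genes for testing. They are described by role as 3 genes of the dorsal domain, 5 of the intermediate domain, 4 of the ventral domain, 4 pan-neural progenitor genes, 7 basic helix-loop-helix (bHLH) genes of the proneural and early differentiation steps, 5 homeodomain and POU factors of new neurons, and 6 genes of the neuronal cytoskeleton and RNA-binding apparatus.

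KAT6A and KAT6B are related histone acetyltransferases, and the study asked whether more Kat6b can stand in for a missing Kat6a. Each of the 4 genotypes was represented by 4 embryos, 2 of them female and 2 male. Kat6a+/+Kat6b+/+ embryos were wild type, Kat6a-/-Kat6b+/+ embryos were homozygous for a Kat6a allele without a block of internal exons, Kat6a+/+Tg(Kat6b) embryos carried the Kat6b transgene, and Kat6a-/-Tg(Kat6b) embryos combined the transgene with the loss of Kat6a. The transgene is a bacterial artificial chromosome holding the whole Kat6b gene with its flanks, so Kat6b is driven by its own regulatory sequence, and Tg(Kat6b) is a single transgenic allele. All 16 embryos shared an FVB x BALB/c hybrid background. No embryo was dissected, so the RNA comes from every tissue of the embryo, and in such bulk samples fewer cells of a type and less RNA per cell cannot be told apart.

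In the closing neural tube, dividing progenitors line the lumen and carry SOXB1 factors, and signals from the roof plate and floor plate divide them along the dorsoventral axis into domains, each marked by a set of homeodomain and bHLH factors. Proneural bHLH factors drive progenitors out of the cell cycle. The cells then switch on LIM-homeodomain and POU factors that set the neuron's type, and the tubulin, microtubule-associated and RNA-binding proteins that every young neuron uses. Several of the genes also act elsewhere in the embryo, for example Pax3 and Pax7 in somites, Lhx1 in intermediate mesoderm, and Irx3, Irx5 and Sox2 in other organ rudiments.

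Each embryo had 14407277 to 45665680 counts in genes, with a median of 23042414. Kat6b was at 42.6 to 48.2 CPM (counts scaled to a common library size, with TMM normalisation) in wild-type embryos, 46.5 to 51.0 in Kat6a-/-Kat6b+/+, 155 to 227 in Kat6a+/+Tg(Kat6b) and 192 to 203 in Kat6a-/-Tg(Kat6b) embryos. Counts over the whole Kat6a gene, at 189 to 218 CPM in Kat6a-/-Kat6b+/+ and 176 to 211 CPM in wild-type embryos, do not check the Kat6a genotype, because the null allele keeps most of its exons. The embryos came from 6 litters. Both Kat6a-/-Tg(Kat6b) litters held no other sequenced genotype, so for these embryos genotype and litter cannot be told apart, and Kat6a-/-Kat6b+/+ and Kat6a+/+Tg(Kat6b) embryos shared no litter. In Kat6a+/+Tg(Kat6b) replicate 1, the 1567 longest of the genes tested, those over 6947 bases, had a median log2 CPM that was 0.23 below the mean of the other 3 embryos of the genotype, against deviations between -0.08 and 0.12 in the other 15 embryos. Dcx and Map2 are among them. Summed over marker genes, surface ectoderm reached 178 to 215 CPM in Kat6a-/-Tg(Kat6b) embryos against 147 to 165 in wild type, and its part in the results was not tested.

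In wild-type embryos the SOXB1 gene Sox2 and the neuronal tubulin gene Tubb3 had the highest levels per length, at 67.9 ± 1.80 and 67.8 ± 10.1 RPKM (CPM divided by gene length in kilobases; SD, n = 4). The order then ran through Sox3 at 42.4 and Irx3 at 37.2 RPKM to Fabp7, which lay between Irx3 and Sox1, and Sox1 at 18.1 RPKM. At the low end stood the factors of small cell groups, Atoh1 at 1.18, Lhx1 at 1.11 and Dbx2 at 0.789 RPKM. The median over all genes tested was 7.29 RPKM, and Elavl3 at 7.02 lay beside it. Sox2 and Tubb3 differed by less than the SD of Tubb3, as did the neighbours Neurog2 (8.57), Olig3 (8.54) and Neurog1 (8.29 RPKM). The opposite-strand gene Gm64654 covers 59.9% of the exon bases of Sox2, so the Sox2 level is uncertain if strand was not used in counting.

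**Figure D1:**
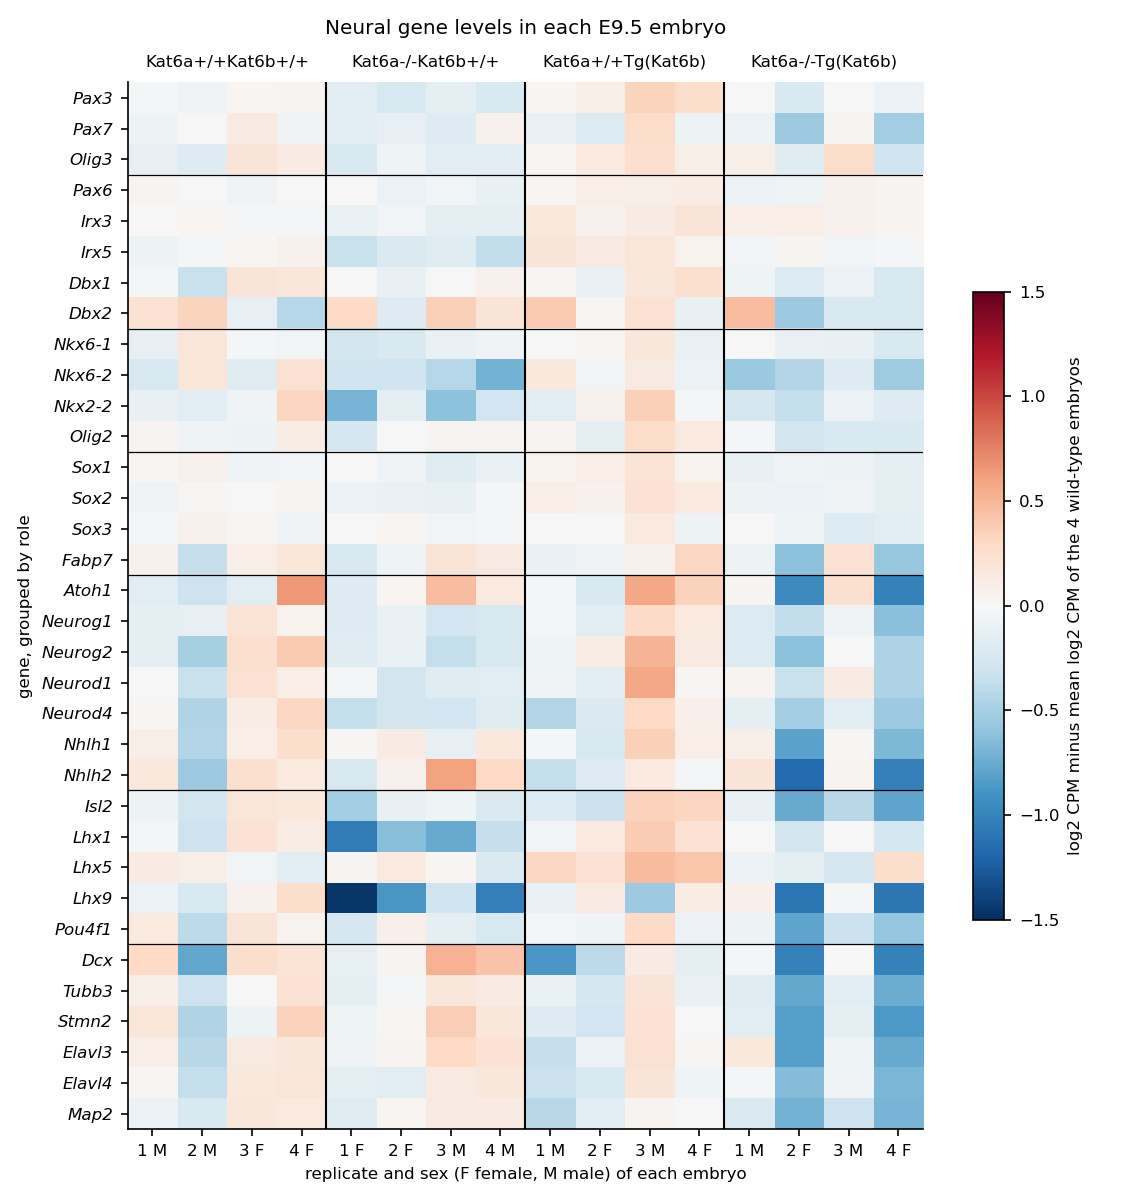
Levels of the 34 neural genes (rows, grouped by role) in each of the 16 embryos (columns, by genotype, replicate and sex). Colour is log2 CPM minus the mean log2 CPM of the 4 wild-type embryos, and the deepest blue cells of the lower rows are in Kat6a-/-Tg(Kat6b) replicates 2 and 4 and, for Lhx9 and Lhx1, in Kat6a-/-Kat6b+/+ embryos.

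The genes differed in how much embryos of one genotype varied. The SD of log2 CPM within genotypes had a median of 0.0666 over the intermediate-domain genes and 0.0662 over the pan-neural genes, against 0.118 over all genes tested. The dorsal and ventral genes were above that, at 0.170 and 0.159, as were single genes of the tighter groups, Dbx2 at 0.308 and Fabp7 at 0.267. The median was 0.273 over the bHLH genes, 0.234 over the neuron homeodomain and POU factors, and 0.282 over the cytoskeleton and RNA-binding genes. Irx3 had the smallest value, 0.0384, at percentile 2.63 of all genes, and Dcx the largest, 0.468, at percentile 92.3. A difference of a given size is therefore resolved far better for Irx3, Sox2 or Pax6 than for Dcx, Nhlh2 or Lhx9.

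**Figure D2:**
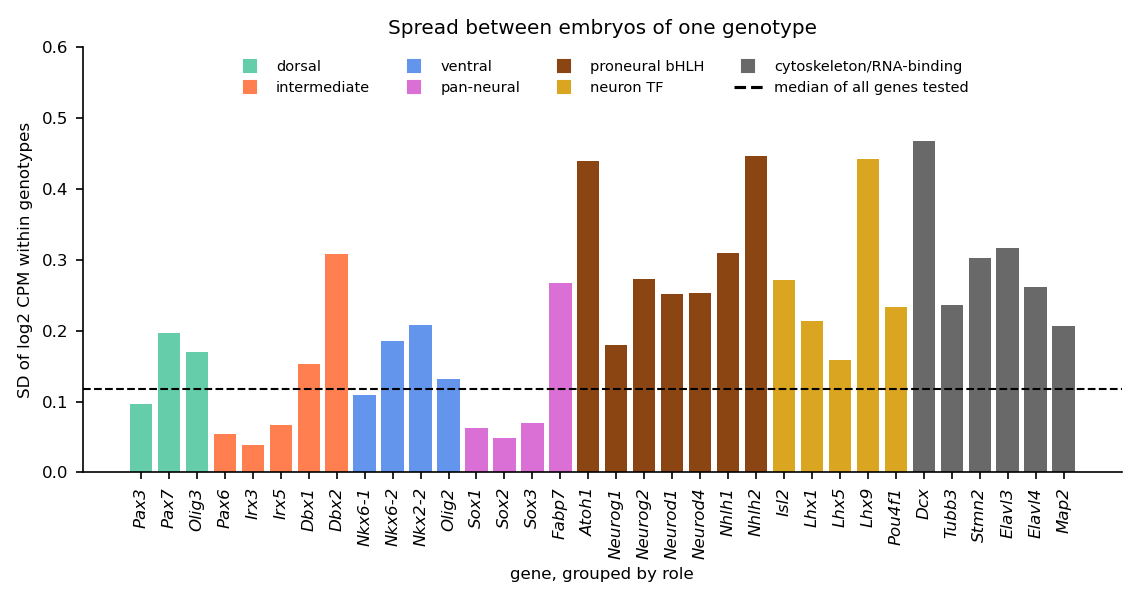
SD of log2 CPM within genotypes (vertical axis, log2 units) for each of the 34 genes, coloured by role, with a dashed line at the median of all genes tested (0.118). The pan-neural genes Sox1, Sox2 and Sox3 lie under the line and all bHLH, neuron factor and cytoskeleton genes above it.

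The sequence before the start of 5 genes on which the comparisons turn is shown because bHLH factors of the proneural family bind E-boxes, written CANNTG. Tubb3, Map2 and Elavl3 represent the neuronal cytoskeleton and RNA-binding group, Nhlh2 the bHLH genes and Lhx1 the neuron homeodomain factors. Each is the 250 bases before the RefSeq start on GRCm38.p6, 5′ to 3′ on the gene's strand, with E-boxes in capitals. The windows are chr8:123411303-123411552 on the plus strand for Tubb3, chr1:66175079-66175328 on the plus strand for Map2, chr9:22052024-22052273 on the minus strand for Elavl3, chr3:102009895-102010144 on the plus strand for Nhlh2, and chr11:84525535-84525784 on the minus strand for Lhx1.
Tubb3: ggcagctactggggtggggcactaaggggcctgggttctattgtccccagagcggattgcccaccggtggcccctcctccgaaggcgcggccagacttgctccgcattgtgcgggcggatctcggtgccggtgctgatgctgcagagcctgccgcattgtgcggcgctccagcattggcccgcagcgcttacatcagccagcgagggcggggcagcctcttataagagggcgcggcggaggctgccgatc
Map2: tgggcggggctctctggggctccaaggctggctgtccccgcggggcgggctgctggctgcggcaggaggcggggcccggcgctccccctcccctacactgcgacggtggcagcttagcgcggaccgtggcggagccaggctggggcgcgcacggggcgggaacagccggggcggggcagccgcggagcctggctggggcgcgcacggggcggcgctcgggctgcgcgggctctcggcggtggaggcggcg
Elavl3: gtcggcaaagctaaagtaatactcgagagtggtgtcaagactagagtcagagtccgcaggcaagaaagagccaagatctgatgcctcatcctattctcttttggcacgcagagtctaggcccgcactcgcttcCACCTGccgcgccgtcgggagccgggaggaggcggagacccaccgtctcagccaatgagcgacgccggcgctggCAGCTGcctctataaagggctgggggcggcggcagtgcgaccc
Nhlh2: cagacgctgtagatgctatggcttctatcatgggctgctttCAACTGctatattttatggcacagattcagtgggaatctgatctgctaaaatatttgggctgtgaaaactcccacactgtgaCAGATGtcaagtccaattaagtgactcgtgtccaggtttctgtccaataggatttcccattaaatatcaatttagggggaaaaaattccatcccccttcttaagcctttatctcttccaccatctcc
Lhx1: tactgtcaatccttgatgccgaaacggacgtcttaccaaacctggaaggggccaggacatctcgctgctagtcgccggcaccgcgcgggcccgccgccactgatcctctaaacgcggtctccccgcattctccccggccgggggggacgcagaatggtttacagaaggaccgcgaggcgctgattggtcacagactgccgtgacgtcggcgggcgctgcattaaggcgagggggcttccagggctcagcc
Elavl3 and Nhlh2 each had 2 E-boxes in these bases, and the other 3 genes had none.

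Windows of 300 bases (250 before and 50 after the start) were available for 29 of the 34 genes, 35 windows in all, and were searched on both strands. CANNTG was in 18 of the 35 windows (51.4%), against 72.3% of all 32851 windows in the RefSeq table. Its special cases CAGCTG and CAGATG were in 17.1% and 22.9% of the genes' windows, against 16.3% and 17.2% of all. The motif CCAAT was in 22 windows (62.9%), against 37.4% of all windows. Elavl4, Dcx and Neurod4 had overlapping windows, each counted separately, so the windows are not independent. These are matches of letters in a fixed window, given with no test.

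Irx5 and Lhx1 fell in Kat6a-/-Kat6b+/+ vs. wild-type embryos, and they were the only ones of the 34 genes past an FDR of 0.05 (edgeR quasi-likelihood test, Benjamini-Hochberg over all genes tested, 2 surrogate variables). That is 5.88% of the genes, against 1.88% of all genes tested, or 0.938% called lower. Over the 34 genes, 23 log2 fold changes were below 0, with a median of -0.08 against 0.0033 over all genes tested, and 13 of the 34 had an unadjusted p under 0.05, against 15.2% of all genes. The CPM values of the genotypes did not overlap for 6 genes, all of them lower without Kat6a (4.01% of all genes were separated in that direction): Irx5, Lhx1, Nkx6-2, Pax3, Lhx9 and Irx3.

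Irx5, an Iroquois homeodomain factor of the intermediate neural tube (chromosome 8, 93084253 to 93102914, plus strand, GRCm39), was at 34.3, 35.7, 36.9 and 38.0 CPM in wild-type replicates 1 to 4. Without Kat6a it was at 28.8, 31.2, 31.8 and 28.0 CPM. Every Kat6a-/-Kat6b+/+ embryo lay below every wild-type embryo, and the log2 fold change was -0.27 ± 0.0564 (SE, edgeR FDR = 0.0121). Its neighbour and relative Irx3 (chromosome 8, 92525153 to 92528695, minus strand) was at 88.3, 90.0, 87.1 and 86.6 CPM in wild type and at 81.9, 85.2, 80.4 and 80.4 CPM in Kat6a-/-Kat6b+/+ embryos. The embryos were again separated, but the difference of -0.10 ± 0.0372 did not pass (edgeR FDR = 0.179). Opposite-strand genes cover 2.69% of the exon bases of Irx5 and 5.03% of those of Irx3, whose reads cannot be told apart from theirs if strand was not used in counting.

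Lhx1, a LIM-homeodomain factor of spinal interneurons (chromosome 11, 84408803 to 84416368, minus strand), was at 4.53, 3.70, 5.31 and 4.94 CPM in wild type. Kat6a-/-Kat6b+/+ embryos had 2.21, 2.95, 2.72 and 3.61 CPM. The groups were separated by a narrow gap between 3.61 and 3.70 CPM, and the log2 fold change was -0.63 ± 0.130 (edgeR FDR = 0.0121). The opposite-strand gene Lhx1os covers 37.9% of the exon bases of Lhx1, so its level is uncertain without strand. Lhx9, a LIM-homeodomain factor of dorsal interneurons, had the largest fold change of the 34 genes, from 14.6, 13.1, 16.2 and 18.7 CPM in wild type to 5.64, 8.50, 12.6 and 7.61 CPM. Its embryos did not overlap either, but its wide spread left the difference of -0.85 ± 0.234 short of the threshold (edgeR FDR = 0.103).

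Among the other progenitor factors, the ventral gene Nkx6-2 was at 8.05, 10.8, 8.39 and 11.1 CPM in wild type and at 7.69, 7.74, 7.03 and 5.81 CPM without Kat6a, a log2 difference of -0.44 ± 0.127 (edgeR FDR = 0.0838). The dorsal gene Pax3 was at 44.2 to 46.8 CPM against 38.7 to 41.4 CPM (-0.19 ± 0.0558, edgeR FDR = 0.0927). Both pairs of groups were separated without passing the test. Next by p were Neurod4 (-0.24), Nhlh2 (0.22), Nkx2-2 (-0.36) and Nkx6-1 (-0.16), with edgeR FDR between 0.172 and 0.248. The pan-neural genes lay between -0.09 and 0.03, and none passed.

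The neuron genes were split by kind. All 5 homeodomain and POU factors had a log2 fold change below 0 (median -0.19), of which Lhx1 passed. All 6 cytoskeleton and RNA-binding genes had a log2 fold change above 0 (median 0.10, from 0.03 to 0.24), and none passed. Tubb3, the tubulin of young neurons (chromosome 8, 124138163 to 124150092, plus strand), was at 124, 94.4, 117 and 136 CPM in wild type and at 106, 115, 131 and 127 CPM without Kat6a. These ranges overlap almost fully.

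Within litters, Irx5 was lower by the same sign in litters 801 (-0.19) and 803 (-0.26 on the log2 scale), as were Lhx1 (-0.81 and -0.24), Lhx9 (-1.07 and -0.41), Pax3 (-0.18 and -0.14) and Irx3 (-0.08 and -0.16). Each litter held a single wild-type embryo. In litter 801 that embryo was male and both Kat6a-/-Kat6b+/+ embryos were female, so sex and genotype cannot be told apart there. The embryos of litter 803 were all male. The sign of the cytoskeleton group changed with the litter: 5 of 6 genes were below 0 in litter 801 and 0 of 6 in litter 803, where the wild-type embryo was replicate 2, which had the lowest wild-type value of Dcx, Tubb3, Stmn2, Elavl3, Elavl4 and Map2. With litter as a block Irx5 (-0.22, edgeR FDR = 0.462) and Lhx1 (-0.50, FDR = 0.588) did not pass. That fit called 18 genes in all, against 295 in the main fit. Leaving out each of the 16 embryos in turn gave between 0 genes (without Kat6a-/-Kat6b+/+ replicate 1) and 4 genes (without wild-type replicate 1), and a single gene without wild-type replicate 3 or 4 or Kat6a-/-Kat6b+/+ replicate 3 or 4.

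A further 67 neural genes were tested, listed by role, with earlier results of these data known. Of these 1 rose and 4 fell without Kat6a, against 1.88% of all genes called. Their median log2 fold change was -0.06. Lhx2, a LIM-homeodomain factor of forebrain and dorsal interneurons, fell (-0.34, edgeR FDR = 0.00123), as did the dorsal factor Zic2 (-0.27, FDR = 0.00545) and the intermediate-dorsal factor Gsx1 (0.499 of the wild-type level, FDR = 0.0405). Cntn2, an adhesion molecule of early axons, rose (0.44, FDR = 0.00157). None of 7 Notch pathway genes passed in edgeR, and 3 had an unadjusted p under 0.05 (15.2% of all genes).

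**Figure D3:**
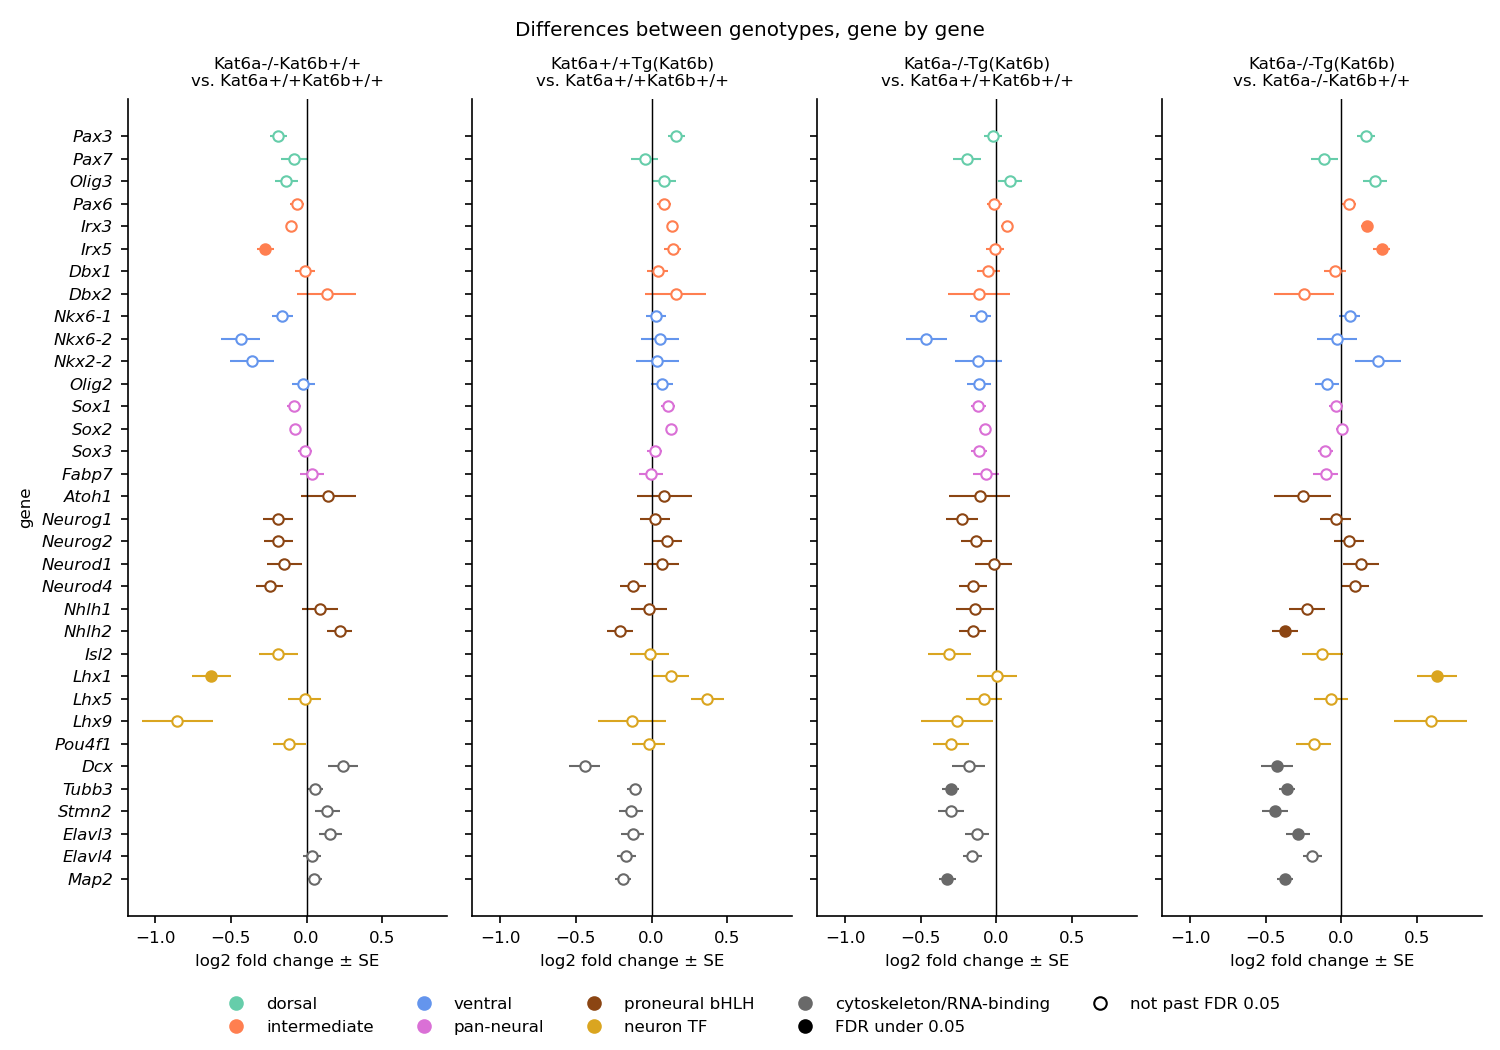
Log2 fold change with its SE (horizontal axes) of each of the 34 genes (vertical axis, coloured by role) in 4 comparisons of genotypes, with filled points for edgeR FDR under 0.05. Irx5 and Lhx1 are filled to the left of 0 in Kat6a-/-Kat6b+/+ vs. wild type and to the right in Kat6a-/-Tg(Kat6b) vs. Kat6a-/-Kat6b+/+, and the cytoskeleton genes lie to the left of 0 in the 3 comparisons that add the transgene.

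The transgene on its own, Kat6a+/+Tg(Kat6b) against wild type, gave 0 calls among the 34 genes in edgeR, against 0.140% of all genes tested, and 11 had an unadjusted p under 0.05 (11.5% of all genes). DESeq2 called 1 of them, Dcx, lower (FDR = 0.00469), and called 219 genes in all, against 22 in edgeR. All 5 intermediate and all 4 ventral progenitor genes had a log2 fold change above 0, with medians of 0.14 and 0.05, and all 6 cytoskeleton and RNA-binding genes one below 0 (median -0.15).

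Irx3 was at 98.3, 91.8, 95.7 and 101 CPM with the transgene, above the 86.6 to 90.0 CPM of every wild-type embryo (log2 0.14 ± 0.0373, edgeR FDR = 0.144). Sox2, a SOXB1 factor that holds progenitors in an undifferentiated state, was at 179, 175, 195 and 186 CPM, against 162, 169, 167 and 172 CPM (0.13 ± 0.0360, FDR = 0.155). Lhx5, a LIM-homeodomain factor of interneurons, was at 11.4, 10.7, 12.8 and 12.3 CPM against 9.97, 9.78, 8.93 and 8.17 CPM (0.37 ± 0.111, FDR = 0.190). The groups of these 3 genes did not overlap (1.62% of all genes were separated upwards), and no difference passed. Replicate 3, which had the highest Sox2 and Lhx5, also had the lowest cardiac muscle marker sum of all embryos (535 CPM against 741 to 955 in the rest of its genotype), and its part was not tested. Without it the differences were 0.14, 0.10 and 0.29 for Irx3, Sox2 and Lhx5. Within the shared litters 2597 and 2598 the same 3 genes were above wild type in both. The differences were 0.13 and 0.22 for Irx3, 0.13 and 0.11 for Sox2, and 0.38 and 0.58 for Lhx5. Each litter held 1 wild-type embryo, set against 3 transgenic embryos in 2597 and 1 in 2598.

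Dcx, a microtubule-associated protein of migrating young neurons, was at 17.2, 24.0, 34.1 and 28.4 CPM with the transgene and at 38.7, 18.3, 37.8 and 36.3 CPM in wild type (-0.44 ± 0.104, edgeR FDR = 0.123). The lowest value belonged to the embryo with low counts on long genes, replicate 1, and without it the difference was -0.33 (FDR = 0.391). Map2, a dendritic microtubule-associated protein with a long transcript (-0.19 ± 0.0519, FDR = 0.152), moved to -0.13 (FDR = 0.502) without the same embryo. The rest of the 10 genes with the smallest p were Pax3 (0.16), Elavl4 (-0.17), Irx5 (0.14), Nhlh2 (-0.21) and Sox1 (0.11), with FDR between 0.230 and 0.331. In litters 2597 and 2598 the 6 cytoskeleton genes were all below 0, with medians of -0.24 and -0.28, each against 1 wild-type embryo. Of the 67 further neural genes, Onecut2 (-0.75) and the neurofilament gene Nefm (-0.32, both with edgeR FDR = 0.0298) fell, against 0.140% of all genes called.

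Tubb3 and Map2 fell in Kat6a-/-Tg(Kat6b) embryos compared with wild type, 5.88% of the 34 genes against 0.670% of all genes tested, or 0.395% called lower. Log2 fold changes were below 0 for 31 of the 34 genes, with a median of -0.12 against -0.0031 over all genes, and 11 genes had an unadjusted p under 0.05 (12.7% of all genes). All 7 bHLH genes, all 4 pan-neural genes, all 4 ventral genes and all 6 cytoskeleton and RNA-binding genes were below 0.

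Tubb3 was at 103, 68.7, 105 and 69.8 CPM in Kat6a-/-Tg(Kat6b) replicates 1 to 4, against 94.4 to 136 CPM in wild type (-0.30 ± 0.0541, edgeR FDR = 0.00982). Map2 (chromosome 1, 66214327 to 66481746, plus strand) was at 51.1, 36.3, 47.8 and 36.6 CPM, against 56.0, 50.6, 67.1 and 66.0 CPM in wild type (-0.32 ± 0.0546, FDR = 0.00554). In both genes the female replicates 2 and 4 lay far below the rest, and male replicate 1 and, for Tubb3, male replicate 3 lay inside the wild-type range. Stmn2, which binds free tubulin in growing axons, was at 22.7, 14.4, 23.4 and 14.1 CPM against 29.1, 18.7, 24.3 and 32.5 CPM and did not pass (-0.30 ± 0.0874, FDR = 0.124).

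Both calls were lost without the surrogate variables, and also with 1 surrogate variable or with sex as a covariate. In the main fit the first surrogate variable was negative in every male and positive in every female embryo. Without surrogate variables the differences were larger, -0.45 for Tubb3 and -0.48 for Map2, and did not pass (edgeR FDR = 0.301 and 0.182). The second surrogate variable, estimated with genotype protected, was lowest in wild-type replicate 2 (-0.479) and Kat6a-/-Tg(Kat6b) replicates 2 (-0.409) and 4 (-0.332), the embryos with the lowest neuron genes. With replicates 2 and 4 left out together, embryos picked after seeing their low neuron genes and a fit that leaves 2 of the genotype, Tubb3 was at -0.22 (FDR = 0.538) and Map2 at -0.25 (FDR = 0.352). That fit called 24 genes in all, against 105 in the main fit. With single embryos left out, Map2 passed in all 16 fits (largest FDR 0.0428, without replicate 4). Tubb3 passed in 14 and had an FDR of 0.0819 or 0.0688 without replicate 2 or 4.

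None of the 16 progenitor genes passed in Kat6a-/-Tg(Kat6b) embryos compared with wild type, and they moved unequally. Irx5, at 35.1, 37.2, 35.3 and 35.6 CPM, and the neuron factor Lhx1, at 4.58, 3.78, 4.56 and 3.80 CPM, lay within the wild-type range. Irx3, at 93.9, 94.3, 92.2 and 90.8 CPM, was above every wild-type embryo (3.42% of all genes were separated in that direction), and Sox1 and Sox2 below every one (3.68% in that direction), all without passing. Nkx6-2, at 6.46, 7.02, 8.32 and 6.55 CPM, had the largest fold change of the 34 genes here and did not pass (-0.46 ± 0.134, FDR = 0.122). The remaining genes among the 10 with the smallest p were Elavl4 (-0.16), Pou4f1 (-0.30), Sox1 (-0.12), Sox3 (-0.11), Isl2 (-0.31) and Neurog1 (-0.23), with edgeR FDR between 0.289 and 0.381. Of the 67 further neural genes 0 passed in edgeR (0.670% of all genes did). An unadjusted p under 0.05 was reached by 24 (12.7% of all genes), with a median of -0.11.

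When the transgene was added to the loss of Kat6a, by comparing Kat6a-/-Tg(Kat6b) with Kat6a-/-Kat6b+/+, 3 of the 34 genes rose and 6 fell, 26.5% against 7.14% of all genes tested. Of all genes 3.39% rose and 3.74% fell. The genes that rose were Lhx1, Irx5 and Irx3, and those that fell were Stmn2, Dcx, Map2, Nhlh2, Tubb3 and Elavl3. This comparison shares the Kat6a-/-Kat6b+/+ embryos with the one against wild type and the Kat6a-/-Tg(Kat6b) embryos with the one before, so the values are given side by side and not as separate evidence.

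Irx5 was at 35.8 ± 0.957 CPM with the transgene and at 29.9 ± 1.84 CPM without it (SD, n = 4), a log2 fold change of 0.27 ± 0.0580 (edgeR FDR = 0.00900). Irx3 was at 92.8 ± 1.60 against 82.0 ± 2.23 CPM (0.17 ± 0.0382, FDR = 0.0105), and Lhx1 at 4.18 ± 0.452 against 2.87 ± 0.579 CPM (0.63 ± 0.132, FDR = 0.00696). For all 3 genes every embryo with the transgene was above every embryo without it (7.29% of all genes were separated upwards). The Irx3 and Irx5 differences also passed without surrogate variables (FDR = 0.00934 and 0.0122) and that of Lhx1 did not (0.50, FDR = 0.0662). Each of the 3 passed when any single embryo was left out, and none with replicates 2 and 4 of Kat6a-/-Tg(Kat6b) out together, where the differences were 0.19, 0.23 and 0.59 (FDR = 0.0837, 0.161 and 0.112 for Irx3, Irx5 and Lhx1). The latter fit called 104 genes in all, against 1119 in the main fit. Lhx9 was at 16.4, 7.24, 15.2 and 7.34 CPM with the transgene, its male embryos in the wild-type range and its female embryos in that of Kat6a-/-Kat6b+/+, and did not pass (0.59 ± 0.242, FDR = 0.172).

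The 6 genes that fell act in or beside young neurons. Tubb3 (-0.36 ± 0.0528, edgeR FDR = 0.000492), Map2 (-0.37 ± 0.0533, FDR = 0.000322) and Stmn2 (-0.44 ± 0.0842, FDR = 0.00402) were lower in every Kat6a-/-Tg(Kat6b) embryo than in any Kat6a-/-Kat6b+/+ embryo (7.94% of all genes were separated downwards). Dcx was at 31.0, 15.6, 31.6 and 15.5 CPM against 28.8, 32.2, 44.9 and 42.2 CPM (-0.42 ± 0.106, FDR = 0.0256). Nhlh2, a bHLH factor of cells leaving the cell cycle (chromosome 3, 101917392 to 101922808), was at 22.0, 8.62, 19.8 and 9.44 CPM against 16.3, 20.2, 29.3 and 23.7 CPM (-0.37 ± 0.0855, FDR = 0.0120). Elavl3, a neuronal RNA-binding protein (chromosome 9, 21926301 to 21963324, minus strand), was at 39.0, 19.7, 33.2 and 20.6 CPM against 33.7, 35.9, 43.0 and 40.6 CPM (-0.29 ± 0.0764, FDR = 0.0267). For the last 3 genes the groups overlapped, since the male embryos were inside the range of Kat6a-/-Kat6b+/+ or near it and the female embryos near or under 20 CPM. Elavl4, the next by p, was at -0.19 (FDR = 0.0593).

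Without surrogate variables none of the 6 neuron genes passed, with edgeR FDR between 0.0563 for Map2 and 0.288 for Nhlh2, although all 6 differences were larger in size, from -0.45 for Elavl3 to -0.67 for Dcx. With replicates 2 and 4 of Kat6a-/-Tg(Kat6b) left out together none passed either, at -0.30 (FDR = 0.0619) for Map2, -0.28 (FDR = 0.120) for Tubb3 and -0.12 (FDR = 0.626) for Elavl3. Over all genes, calls went from 1119 to 104 in that fit. Dcx and Elavl3 each passed in 9 of the 16 fits that left out a single embryo, and had their largest FDR, 0.172 and 0.185, without Kat6a-/-Tg(Kat6b) replicate 4. Nhlh2 passed in 15 of them, and failed (FDR = 0.109) without that same embryo.

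Among the 67 further neural genes 2 rose and 7 fell (3.39% and 3.74% of all genes). Of the 7 that fell, 6 belong to 25 other early neuron genes, whose median was -0.23. The axonal adhesion gene Cntn2 (-0.65, edgeR FDR = 3.55e-05), the neurofilament genes Nefm (-0.48, FDR = 9.58e-05) and Nefl (-0.41, FDR = 0.00119) and the related filament gene Ina (-0.36, FDR = 0.00302) had the smallest FDR. These calls come from the same embryos and the same fit with 2 surrogate variables. In every comparison the further genes were read in that fit only, and whether their calls hold in the other fits was not tested. None of the 7 Notch pathway genes passed in edgeR (median 0.09), and 2 had an unadjusted p under 0.05 (3631 of all 15679 genes tested).

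**Figure D4:**
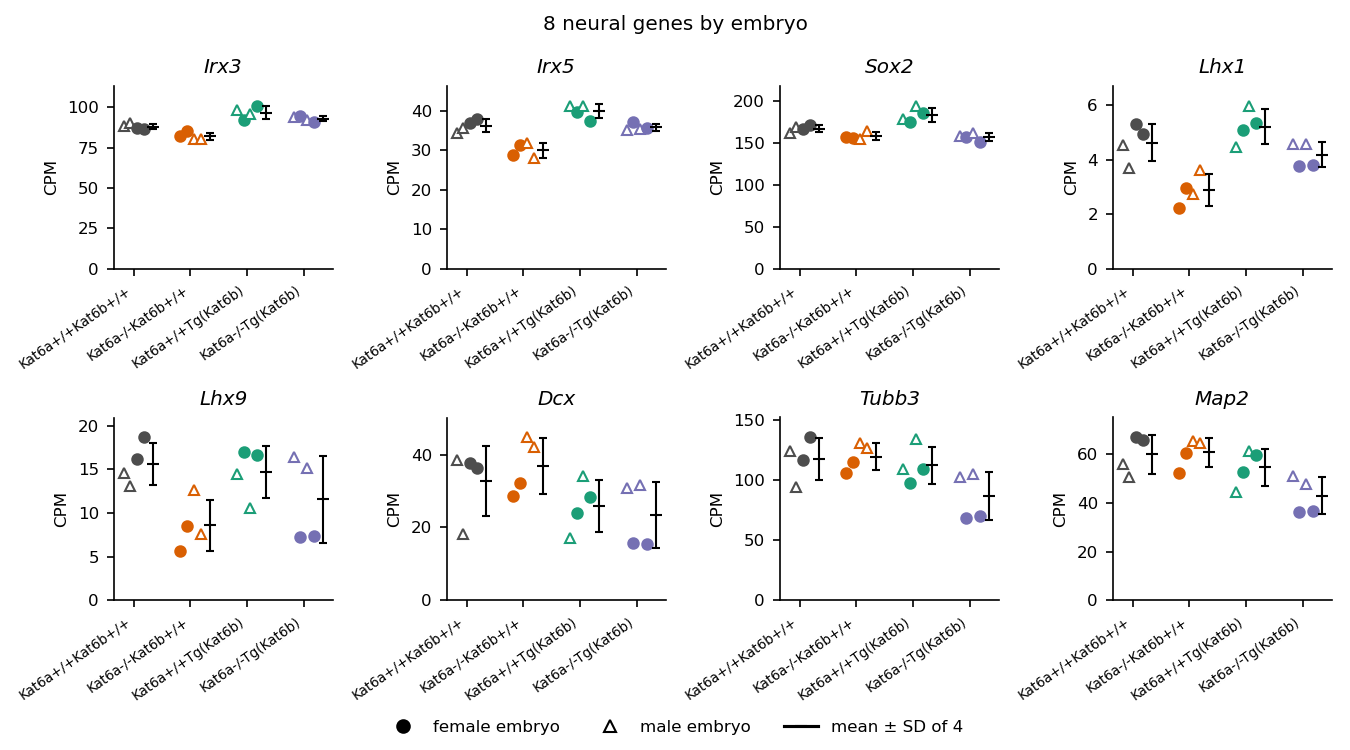
CPM (vertical axes, from 0) of 8 neural genes in each embryo by genotype (horizontal axes), with filled circles for female and open triangles for male embryos and bars for the mean ± SD of 4 embryos. Irx3, Irx5 and Sox2 form tight groups, and in Lhx9, Dcx, Tubb3 and Map2 the 2 female Kat6a-/-Tg(Kat6b) embryos lie below the 2 male ones.

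Loss of Kat6a was also compared on the transgenic background. In Kat6a-/-Tg(Kat6b) vs. Kat6a+/+Tg(Kat6b) embryos 4 of the 34 genes fell and none rose, 11.8% against 3.41% of all genes tested (1.14% lower), and 30 of the 34 log2 fold changes were below 0 (median -0.14). Sox2 was at 159, 157, 162 and 151 CPM, under the 175 to 195 CPM of every Kat6a+/+Tg(Kat6b) embryo (-0.21 ± 0.0392, edgeR FDR = 0.00744). Its relative Sox1 was at 67.3, 69.9, 69.1 and 66.3 CPM against 75.4, 78.4, 84.1 and 75.7 CPM (-0.23 ± 0.0497, FDR = 0.0149). The embryos did not overlap in either gene (4.37% of all genes were separated downwards). An opposite-strand gene covers 59.9% of the exon bases of Sox2, so the Sox2 level is uncertain without strand.

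Nkx6-2, a ventral homeodomain factor, was at 6.46 to 8.32 CPM against 8.95 to 10.6 CPM (-0.52 ± 0.137, FDR = 0.0401). Lhx5 was at 8.65, 8.31, 7.71 and 11.0 CPM against 10.7 to 12.8 CPM (-0.45 ± 0.120, FDR = 0.0413), with 1 embryo inside the range of the other genotype. Tubb3 (-0.19, FDR = 0.0646) and Pax3 (-0.19, FDR = 0.0904) came next by p, followed by Sox3, Irx5, Map2 and Pou4f1 with FDR between 0.159 and 0.211. Sox1, Sox2 and Nkx6-2 also passed without surrogate variables (FDR = 0.0185, 0.00275 and 0.0389), together with Pax3, while Lhx5 did not (FDR = 0.0610). Leaving out single embryos gave between 2 genes and 7 (without wild-type replicate 2), with 2 genes without any of Kat6a-/-Kat6b+/+ replicates 1, 2 and 3, Kat6a+/+Tg(Kat6b) replicates 1 and 3 and Kat6a-/-Tg(Kat6b) replicates 1, 2 and 4, and Sox2 passed each time. With Kat6a-/-Tg(Kat6b) replicates 2 and 4 out together none passed, at -0.20 for Sox2 (FDR = 0.102) and -0.22 for Sox1 (FDR = 0.160). Calls over all genes went from 535 to 64 in that fit. Of the 67 further neural genes 1 rose (Onecut2, 0.59) and 6 fell, against 3.41% of all genes called (1.14% lower). Among those that fell were Sox4 (-0.14, FDR = 0.0273), Stmn3 (-0.50, FDR = 0.0275) and Msx3 (-0.30, FDR = 0.0298).

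Kat6a+/+Tg(Kat6b) and Kat6a-/-Kat6b+/+ embryos differed the most, in 17 of the 34 genes, against 12.7% of all genes tested (5.46% higher and 7.19% lower), but they shared no litter. With litter as a block, which compares them only through wild type, 0 of the 34 genes passed in edgeR. Irx3 was at 0.28 (FDR = 0.313), Irx5 at 0.30 (FDR = 0.610), and Neurog2 turned to -0.23 (FDR = 0.842). The block left few calls over all genes, 8 against 1984 without it. In the fit without the block, with Kat6a and the transgene 10 genes were higher, and in all 10 the embryos were separated (7.84% of all genes in that direction). They were Irx5 (0.41 ± 0.0560, edgeR FDR = 8.55e-05), Irx3 (0.24, FDR = 0.000300), Pax3 (0.35, FDR = 0.000371), Lhx1 (0.76 ± 0.127, FDR = 0.000636), Sox2 (0.21, FDR = 0.000818), Sox1, Nkx6-2, Lhx5, Pax6 and Neurog2. Irx5 was at 41.3, 39.6, 41.2 and 37.5 CPM against 28.0 to 31.8 CPM. All 6 cytoskeleton and RNA-binding genes and Nhlh2 were lower, from Dcx (-0.68 ± 0.103, FDR = 0.000701) and Nhlh2 (-0.43, FDR = 0.00204) to Tubb3 (-0.17, FDR = 0.0361), and in none of these 7 were the embryos separated.

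Without surrogate variables 9 of the 10 higher genes passed, all but Neurog2 (FDR = 0.164), and none of the 7 lower ones. With each embryo left out in turn the count ran from 11 (without Kat6a-/-Kat6b+/+ replicate 4) to 17. Without Kat6a+/+Tg(Kat6b) replicate 1, the embryo with low counts on long genes, Dcx was at -0.60 (FDR = 0.00284) and Map2 at -0.20 (FDR = 0.0148). Of the 67 further neural genes 16 were higher and 10 lower (5.46% and 7.19% of all genes). The progenitor factors Zic2 (0.35, FDR = 0.000145) and Lhx2 (0.34, FDR = 0.000258) were among the higher. Cntn2 (-0.78, FDR = 6.61e-07) and Nefm (-0.55, FDR = 6.69e-06) were among the lower. The Notch ligand gene Dll1 and the Notch targets Hes1 and Hes5 were higher and Notch1 was lower, 4 of the 7 Notch pathway genes.

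The interaction term, which asks whether the transgene's effect differs with and without Kat6a, called none of the 34 genes in edgeR, and none in DESeq2 (0.153% of all genes tested passed in edgeR). An unadjusted p under 0.05 was reached by 7 of the 34 (14.6% of all genes), namely Tubb3 (-0.25, edgeR FDR = 0.162), Lhx1 (0.50, FDR = 0.224), Lhx5 (-0.44), Stmn2 (-0.30), Map2 (-0.19), Sox2 (-0.13) and Sox1 (-0.14, FDR = 0.327).

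The neuron genes and some progenitor genes of Kat6a-/-Tg(Kat6b) embryos lay at 2 levels. Replicates 2 and 4, both female, had the 2 lowest values of their genotype in 24 of the 34 genes (70.6%, against 26.2% of all genes tested), including all 7 bHLH genes, all 6 cytoskeleton and RNA-binding genes, 4 of 5 neuron homeodomain and POU factors and all 3 dorsal-domain genes, with 2 of 4 pan-neural, 1 of 5 intermediate-domain and 1 of 4 ventral genes. The pair was picked after seeing its low neuron genes, so this share describes the pair and is no test. Replicate 2 was the lowest of all 16 embryos in 11 genes and replicate 4 in 10. These embryos come from litters 483 (replicates 1 to 3) and 498 (replicate 4), so one female shared a litter with both males. Several sums of markers of other tissues, 6 to a list and none of them at 0, also differed in these embryos. The surface ectoderm sum was 209 and 215 CPM in replicates 2 and 4 against 178 and 188 in replicates 1 and 3, and the cardiac muscle sum 910 and 908 against 799 and 820 CPM. Endothelium (353 and 369 against 389 and 372 CPM) and primitive erythroid (3311 and 3384 against 3618 and 4005 CPM) were lower. Neural crest and glia overlapped, at 229 and 238 against 239 and 232 CPM. The part of these tissues in the result was not tested. Kat6a+/+Tg(Kat6b) replicate 3 had the highest value of all embryos in 16 genes, and the lowest sums of all 16 embryos for cardiac muscle (535 CPM), gut and visceral endoderm (72.6 CPM) and surface ectoderm (129 CPM). How many of all genes tested were lowest or highest of all embryos in these replicates was not counted. The counts of extreme values are therefore not read as particular to the neural genes.

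In a fit of genotype and sex without surrogate variables, chosen after seeing the data, 4 of the 34 genes were lower in female than male Kat6a-/-Tg(Kat6b) embryos (0.364% of all genes were). They were Nhlh2 (-1.21 ± 0.223, edgeR FDR = 0.0411), Lhx9 (-1.12 ± 0.218, FDR = 0.0411), Nhlh1 (-0.79, FDR = 0.0480) and Fabp7 (-0.65, FDR = 0.0480). By sex none of the 34 genes passed in edgeR in wild-type (0.491% of all genes), Kat6a-/-Kat6b+/+ (0.102%) or Kat6a+/+Tg(Kat6b) embryos (0.0702%), where 5, 3 and 1 of them had an unadjusted p under 0.05 (9.30%, 7.66% and 3.84% of all genes). In Kat6a-/-Tg(Kat6b) embryos 18 had one (12.3% of all genes). The median female minus male difference of the cytoskeleton and RNA-binding genes was -0.67 in Kat6a-/-Tg(Kat6b), 0.30 in wild type, -0.27 in Kat6a-/-Kat6b+/+ and -0.06 in Kat6a+/+Tg(Kat6b) embryos. Against the sex difference in wild type, that of Kat6a-/-Tg(Kat6b) embryos was lower for 8 genes (0.797% of all genes). Against the mean of the other 3 genotypes it was lower for 0 genes in edgeR (0.0510% of all genes), and 18 of the 34 had an unadjusted p under 0.05 (10.7% of all genes). With 2 embryos of each sex, sex and embryo cannot be told apart. Both Kat6a-/-Kat6b+/+ females came from litter 801 and both males from litter 803, and wild-type females and males shared no litter. In these genotypes a difference by sex is therefore also a difference between litters, which enters the mean of the other genotypes too.

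Summed over Dcx, Tubb3, Stmn2, Elavl3, Elavl4 and Map2, wild-type embryos had 112, 82.6, 108 and 123 RPKM. Kat6a-/-Kat6b+/+ embryos had 96.2, 104, 121 and 117 RPKM, and Kat6a+/+Tg(Kat6b) embryos 92.7, 88.3, 120 and 99.8 RPKM. Kat6a-/-Tg(Kat6b) embryos had 95.4, 61.4, 95.4 and 62.0 RPKM. The 2 female embryos are thus alone below 80 RPKM. The 2 male ones lie inside the ranges of wild-type and Kat6a+/+Tg(Kat6b) embryos and just below the lowest Kat6a-/-Kat6b+/+ embryo. Divided by the sum over Sox1, Sox2, Sox3 and Fabp7, which ran from 138 to 159 RPKM in Kat6a-/-Tg(Kat6b) and from 159 to 166 in wild type, the neuron genes came to a ratio of 0.523 ± 0.0986 in Kat6a-/-Tg(Kat6b), 0.652 ± 0.0940 in wild type, 0.694 ± 0.0589 in Kat6a-/-Kat6b+/+ and 0.581 ± 0.0545 in Kat6a+/+Tg(Kat6b) embryos (SD, n = 4). The ratio is weighted towards Tubb3 and Sox2, and the genotypes overlap in it, with 0.428 and 0.448 in the female and 0.614 and 0.602 in the male Kat6a-/-Tg(Kat6b) embryos. The Sox2 level in it is uncertain without strand.

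**Figure D5:**
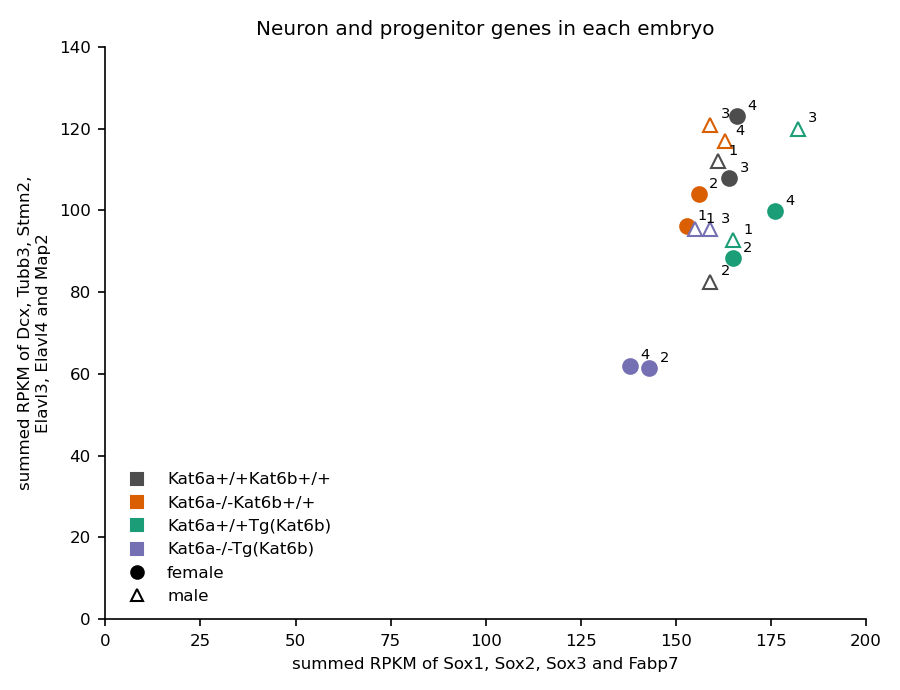
Summed RPKM of 6 neuronal cytoskeleton and RNA-binding genes (vertical axis) against summed RPKM of 4 pan-neural progenitor genes (horizontal axis) in each embryo, coloured by genotype, with filled circles for female and open triangles for male embryos and the replicate number beside each. Kat6a-/-Tg(Kat6b) replicates 2 and 4, at 61.4 and 62.0 RPKM, lie below the other 14 embryos, which run from 82.6 to 123 RPKM.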

How the data were processed

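RNA of 16 whole embryos was sequenced as paired-end TruSeq libraries, and the authors aligned the reads to mm39 with Rsubread. They deposited raw counts per gene, without normalization, with gene identifiers and lengths. The labels name featureCounts, with no version. The annotation, the strand setting and the treatment of shared reads are not given in the sources used here. Genotype, sex and litter came from the labels.

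The genes and lists were chosen with earlier results of these data known. From the deposited counts, genes were kept by filterByExpr (minimum count 10, total 15), which held at least 99.95% of the counts of each embryo, and scaled by TMM. edgeR 4.0.16 in R 4.3.3 fitted quasi-likelihood models (robust) to the 4 genotypes together, adding 2 surrogate variables from sva 3.50.0 (log2 CPM, prior count 2, genotype protected). FDR is the Benjamini-Hochberg adjusted p over all genes tested, with a threshold of 0.05. RPKM used the deposited lengths. The genes given in full per comparison were those past the threshold and then those with the smallest p, up to 10. Within-litter values and the spread are differences and SDs of log2 CPM. Positions come from GENCODE on GRCm39 and promoter windows from RefSeq. The tests were first checked on simulated data.

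Alternatives were no or 1 surrogate variable, DESeq2 1.42.0 and its size factors, limma-voom (limma 3.58.1), other filters, sex, replicate number or litter in the fit, only the genotypes compared, and each embryo left out. The fit of genotype and sex and the fit without Kat6a-/-Tg(Kat6b) replicates 2 and 4 were added after seeing the data. Counting depth bounds precision for the lowest genes, and the replicates are separate embryos that in part share litters.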

Additional observations from a re-analysis of the deposited data

Results flagged for a closer look

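In 5 of 136 groups of 4 embryos (34 genes by 4 genotypes) 1 embryo stood apart from the other 3 by Dixon's test, where chance gives about 1 group in 20. The lowest wild-type value of Nhlh2 (13.2 CPM), Dcx (18.3 CPM) and Elavl3 (26.2 CPM) belonged each time to replicate 2. Olig2 was lowest in Kat6a-/-Kat6b+/+ replicate 1 (16.3 CPM), and Atoh1 was highest in wild-type replicate 4 (3.78 CPM).

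For 8 genes the female minus male difference in log2 was lower in Kat6a-/-Tg(Kat6b) than in wild-type embryos, by the interaction of genotype and sex in edgeR, a fit chosen after seeing the data: Olig3 (-0.74, FDR = 0.0250), Fabp7 (-0.91, FDR = 0.0367), Neurog2 (-1.03, FDR = 0.0349), Nhlh1 (-1.11, FDR = 0.0349), Nhlh2 (-1.54, FDR = 0.0423), Lhx9 (-1.44, FDR = 0.0407), Elavl4 (-0.95, FDR = 0.0339) and Map2 (-0.76, FDR = 0.0432). Wild-type replicate 2, the male embryo with low neuron genes, is 1 of the 2 wild-type males in it, and both wild-type males come from other litters than both females. Against the mean of the other 3 genotypes none of the 34 genes passed in edgeR.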

How the results depend on the processing

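The values here are how many of the 34 genes passed. In Kat6a-/-Kat6b+/+ vs. wild type (2) there was 1 without surrogate variables, with 1 surrogate variable or with sex as a covariate, and 0 with only the 2 genotypes or with litter as a block. The 2 genes of Kat6a-/-Tg(Kat6b) vs. wild type became 0 under no or 1 surrogate variable, sex or only the 2 genotypes, and 1 with at least 10 counts in every embryo. Kat6a+/+Tg(Kat6b) vs. wild type (0) gave 1 in DESeq2, which called 219 genes in all against 22 in edgeR. Kat6a-/-Tg(Kat6b) vs. Kat6a-/-Kat6b+/+ (9) gave 2 under no or 1 surrogate variable, sex or only the 2 genotypes. Kat6a+/+Tg(Kat6b) vs. Kat6a-/-Kat6b+/+ (17) gave 9 under no or 1 surrogate variable or sex, 8 with no filter, 10 with only the 2 genotypes and 0 with litter as a block, where Neurog2 reversed to -0.23 (FDR = 0.842). These groups share no litter, so the block compares them through wild type. Over all genes the litter block gave 8 calls here, against 1984, and 18 against 295 in Kat6a-/-Kat6b+/+ vs. wild type. Replicates 2 and 4 of Kat6a-/-Tg(Kat6b) left out together gave 0 in each comparison with that genotype. Over all genes, calls then went from 105 to 24 against wild type. They went from 1119 to 104 against Kat6a-/-Kat6b+/+ and from 535 to 64 against Kat6a+/+Tg(Kat6b). The cause of these shifts was not tested.

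With each embryo left out the counts ran from 0 to 4, 1 to 3, 0 to 0, 7 to 11 and 11 to 17 in the same order, and from 2 to 7 for Kat6a-/-Tg(Kat6b) vs. Kat6a+/+Tg(Kat6b) (4). In the latter the replicate number as a block gave 2 and changed no other count by more than 1.5 times. The numbers do not pair the embryos (10 of 24 same-number pairs had a correlation over 0.1, from -0.255 to 0.215). The interaction stayed at 0 in every fit. Levels moved by at most 1.06% under other library sizes. Depth limits Atoh1, Lhx1, Nkx2-2 and Dbx2, the lowest of the genes.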
